A study of Homo sapiens with 4 samples.

Results

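The genes described here are 10 components of activin, transforming growth factor beta (TGF-β) and bone morphogenetic protein (BMP) signalling, out of 43622 genes in the deposited expression table. They are the ligand genes INHBA, INHBB, TGFB1, TGFB2, BMP2 and BMP4, the extracellular inhibitors FST and FSTL3, the intracellular inhibitor SMAD7 and the target gene ID1. Each was taken by its symbol, and all 10 had a row. The set was chosen by measured values of these same libraries, so the levels and differences of the 10 genes are given as a description, with no test. RNA sequencing was done on PC3, a line of human prostate adenocarcinoma cells, after 3 days with 1 µM MLN4924 or with the solvent DMSO. Cells of the wt genotype gave the conditions Ctrl (DMSO) and MLN (MLN4924). Cells labelled Sh ARF, a population that stably carried a retroviral short hairpin RNA (shRNA) against p14ARF, gave shARF (DMSO) and Both (MLN4924). No control shRNA is named, so the hairpin, its vector and its selection cannot be told apart in the shARF comparisons. Each condition had 3 libraries, numbered 1, 2 and 3 in Ctrl and 1, 2 and 5 in MLN, 1, 3 and 5 in shARF and 2, 3 and 4 in Both. Nothing states whether these were separate cultures, so the errors measure only the spread between these libraries.

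Ligands of this family are secreted dimers. INHBA encodes the subunit of activin A and INHBB that of activin B, and follistatin, the product of FST, binds activins and keeps them from their receptors, as does the related protein encoded by FSTL3. A ligand brings type II and type I receptor kinases together, and the type I receptor phosphorylates SMAD2 and SMAD3 (activins and TGF-βs) or SMAD1, SMAD5 and SMAD9 (BMPs), which enter the nucleus with SMAD4. SMAD7 and SMAD6 are inhibitory SMADs that their own pathway switches on, and ID1 is a standard transcriptional target of BMPs. TGF-β is known for arresting normal prostate epithelium and for losing this hold over carcinoma cells. MLN4924 blocks the enzyme that activates NEDD8, and with it the ubiquitin ligases built on cullins, while p14ARF, from the CDKN2A locus, restrains MDM2.

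CDKN2A, the locus that the shRNA targets, lay at 177 to 190.1 TPM (a level scaled to transcript length and to the total of the library) in Ctrl and 58.2 to 60.9 in shARF, at 100.4 to 133 in MLN and at 41.2 to 54.0 in Both. The TPM of a gene adds the p14ARF and p16INK4a transcripts of this locus, so the value is no measure of p14ARF alone. All 5 epithelial markers looked at (KRT8, KRT18, KRT19, EPCAM and CDH1) were at or above 7.18 TPM in every library, and KLK3 was at 0 in all. The epithelial sum ranged from 907 to 1004 TPM in Ctrl and 439 to 504 in MLN, 1138 to 1280 in shARF and 433 to 449.9 in Both. The 7 markers of other cell types summed to 11.6 to 13.1 TPM in Ctrl and 2.89 to 3.75 in MLN, 6.97 to 8.24 in shARF and 11.7 to 14.3 in Both, and the leukocyte gene PTPRC stayed at or under 0.285 TPM in each condition mean. The endothelial gene PECAM1 made up most of the Ctrl sum (11.7 TPM, with CDH5 at 0.0936). The stromal gene LUM made up most of the shARF sum (5.31 TPM) and of the Both sum (11.8 TPM), and was at 0.152 TPM in Ctrl and 1.37 in MLN. The part of these marker shifts in the results below was not tested. All libraries came from cultured PC3 cells. In bulk RNA, fewer cells expressing a gene and less of its RNA per cell cannot be told apart. Libraries of a condition correlated at 0.9745 to 0.9801 over the 19932 genes tested, and no 2 libraries of different conditions exceeded 0.9593.

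The sequence just before the gene start is printed for INHBA and FST, the activin gene with the widest range of levels and its inhibitor, and for ID1, the target gene. RefSeq gave a start for 9 of the 10 genes (GRCh38.p14). Each run is the 250 bases before the start, read 5′ to 3′ on the gene's strand, and capitals mark matches on either strand to the letters searched. INHBA is on the minus strand (chr7:41703091-41703340), FST on the plus strand (chr5:53480379-53480628) and ID1 on the plus strand (chr20:31605039-31605288).
INHBA: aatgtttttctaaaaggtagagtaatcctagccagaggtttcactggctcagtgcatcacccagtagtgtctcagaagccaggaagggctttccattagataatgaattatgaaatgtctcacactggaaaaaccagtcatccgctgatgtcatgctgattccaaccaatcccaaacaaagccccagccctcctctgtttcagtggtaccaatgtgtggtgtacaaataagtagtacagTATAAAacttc
FST: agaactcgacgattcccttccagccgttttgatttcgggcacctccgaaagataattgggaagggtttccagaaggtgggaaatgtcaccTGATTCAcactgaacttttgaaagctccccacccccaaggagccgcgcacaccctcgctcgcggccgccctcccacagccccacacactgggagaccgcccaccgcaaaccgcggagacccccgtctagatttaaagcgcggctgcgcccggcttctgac
ID1: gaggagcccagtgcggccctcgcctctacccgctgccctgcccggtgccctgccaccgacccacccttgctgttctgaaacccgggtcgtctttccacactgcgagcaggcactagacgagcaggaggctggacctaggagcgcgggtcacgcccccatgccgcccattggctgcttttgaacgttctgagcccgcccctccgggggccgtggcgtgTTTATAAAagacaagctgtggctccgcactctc
The letters searched were the AP-1 site TGANTCA, the cyclic AMP response element TGACGTCA, the SMAD palindrome GTCTAGAC, the GC-rich SMAD element GGCGCC, the E-box CACGTG and the TATA element TATAAA. The INHBA sequence held a TATA match 11 bases before its start, ID1 a pair of overlapping TATA matches 33 and 31 bases before, and FST an AP-1 match 160 bases before. Of 27305 promoters of the same length, 11.1% held the TATA letters and 6.596% the AP-1 letters. FSTL3 and TGFB2 held TATA letters 29 bases before their starts, and SMAD7 35 bases before 1 of its 3 starts. The E-box (6.49% of promoters) was found in TGFB2 and before 1 of the 3 starts of BMP4, and the GC-rich SMAD element (16.1% of promoters) in FSTL3, before another start of BMP4 and at 2 places in INHBB. The cyclic AMP response element (1.765% of promoters) and the SMAD palindrome (0.176%) had no match in the 9 genes. GENCODE extends INHBA beyond the RefSeq start, from 41667168 to 41705834 of chromosome 7.

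INHBA was the gene of the set with the widest range, at about the same level in Ctrl and MLN and close to the lowest of the 10 in shARF. FST was the most abundant or close to it outside shARF, and INHBB was the rarest except in Both. In Ctrl the order ran from ID1 (359 TPM) and FST (348), whose libraries overlapped, through TGFB1 (120.4) and INHBA (112), which also overlapped, to FSTL3 (32.1), TGFB2 (13.3), BMP2 (8.02), SMAD7 (1.88) and BMP4 (1.85), and INHBB (0.209). SMAD7 and BMP4 overlapped as well. In shARF the 4 lowest genes, SMAD7 (1.64), INHBA (1.60), BMP4 (1.46) and INHBB (1.29), overlapped from neighbour to neighbour, so INHBA had joined the genes at about 1 TPM. In MLN the order at the top was FST (273), ID1 (131), INHBA (112.5) and TGFB1 (96.2), and in Both it was FST (236), TGFB1 (98.6), ID1 (89.9) and INHBA (34.4).

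The activin A gene INHBA (chromosome 7, GRCh38, minus strand) was at 112, 113 and 111 TPM in the Ctrl libraries and at 111, 116 and 109.9 TPM in MLN. The 2 conditions overlapped, and the log2 difference on the log2(TPM + 0.1) scale was 0.01 (standard error 0.04, 95% interval −0.09 to 0.11, from 3 against 3 libraries). The shARF libraries held 1.76, 1.52 and 1.51 TPM and the Both libraries 34.3, 36.4 and 32.6 TPM. Every shARF library was far below every other library, and Both lay between shARF and the wt conditions. The mean was 70.1 times lower in shARF than in Ctrl (log2 difference −6.05, standard error 0.07), and 26 of the 19932 genes tested had a lower value. With a pseudocount of 1 TPM this log2 difference was −5.44, and that of Both vs shARF, given next, was 3.77. With MLN4924 on top of the shRNA the mean was 21.6 times that of shARF (log2 difference 4.35, standard error 0.09), yet 3.27 times lower than in MLN (−1.71, standard error 0.06). The antisense transcript INHBA-AS1, which overlaps the gene on the other strand, was at 0.546 TPM in Ctrl and 0.799 in MLN, 0.0577 in shARF and 0.167 in Both (means). Whether the counting used strand is not stated, so reads of this pair cannot be told apart.

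INHBB (chromosome 2, plus strand), the activin B gene, was scarce, and lowest in Ctrl. Its Ctrl libraries held 0.390, 0.0934 and 0.142 TPM, those of MLN 1.15, 0.751 and 0.894, those of shARF 1.47, 1.16 and 1.24, and those of Both 1.78, 3.03 and 2.69. Ctrl was below all others and Both above all others, while MLN and shARF did not overlap by a narrow margin. The log2 difference was 1.84 (standard error 0.40) for MLN vs Ctrl, 2.29 (0.38) for shARF vs Ctrl, 0.87 (0.23) for Both vs shARF and 1.32 (0.26) for Both vs MLN. At these levels the size rests on the pseudocount: with 1 TPM in place of 0.1 the first 2 of these were 0.68 and 0.93, and the last was 0.85. The ratio of INHBA to INHBB in a library ranged from 287 to 1206 in Ctrl and 96.6 to 155 in MLN, 1.196 to 1.303 in shARF and 12.01 to 19.3 in Both, so the transcripts of both activin subunits were about equally abundant in shARF cells and nowhere else among the 4 conditions.

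FST (chromosome 5, plus strand) had smaller differences than INHBA, but it too was lowest in shARF and higher in Both. Its levels were 347, 339 and 357 TPM in Ctrl and 264, 281 and 273 in MLN, 101, 109.5 and 97.8 in shARF, and 231, 248.5 and 228.5 in Both. No pair of conditions overlapped. MLN was below Ctrl by a log2 difference of −0.35 (standard error 0.05), whereas Both was above shARF by 1.199 (0.06), so MLN4924 went with less FST transcript in wt cells and with more in cells with the shRNA. The shARF mean was 3.38 times lower than that of Ctrl (−1.76, standard error 0.05). Both was slightly below MLN (−0.21, standard error 0.06), a value that scaling by the median of ratios brought to −0.12.

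FSTL3 (chromosome 19, plus strand), the second inhibitor, was at 35.8, 30.9 and 29.8 TPM in Ctrl and 61.5, 82.2 and 70.7 in MLN, 14.3, 15.5 and 16.6 in shARF, and 26.7, 25.2 and 22.9 in Both. The 4 conditions did not overlap. Unlike FST, it was higher with MLN4924 in wt cells (log2 difference 1.15, standard error 0.12) as well as with the shRNA (0.69, standard error 0.08). It was lower with the shRNA under either treatment, at −1.05 (0.09) for shARF vs Ctrl and −1.51 (0.12) for Both vs MLN.

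The balance of inhibitor and activin transcripts differed between conditions. There were 3.01 to 3.21 FST transcripts per INHBA transcript in the Ctrl libraries, 2.37 to 2.49 in MLN, 57.4 to 72.3 in shARF and 6.75 to 7.02 in Both. With FSTL3 and INHBB added to the respective sides, the ratio was 3.28 to 3.48 in Ctrl and 2.89 to 3.11 in MLN, 35.7 to 46.6 in shARF and 6.93 to 7.15 in Both, with no overlap. These are ratios of TPM, and no protein was measured here.

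TGFB1 (chromosome 19, minus strand), the most abundant TGF-β gene of the set, had condition means between 96.2 and 120.4 TPM. It was at 134, 115 and 112 TPM in Ctrl and 80.4, 102 and 107 in MLN, 115, 111 and 133 in shARF, and 98.0, 93.9 and 104 in Both. Ctrl and shARF overlapped with a log2 difference of −0.01 (95% interval −0.26 to 0.25), and MLN and Both overlapped with 0.04 (−0.24 to 0.32). The 2 conditions with MLN4924 lay below their DMSO counterparts without overlap, by −0.33 (standard error 0.13) in wt cells and −0.28 (0.08) with the shRNA. The first of these was −0.21 without MLN library 1, and the second −0.18 with scaling by the median of ratios. HNRNPUL1 (99.3 TPM in Ctrl and 72.02 in MLN, 135.5 in shARF and 91.0 in Both), CCDC97 and TMEM91 overlap TGFB1 on the other strand.

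TGFB2 (chromosome 1, plus strand) differed with both MLN4924 and the shRNA. Its libraries held 12.8, 13.8 and 13.4 TPM in Ctrl and 23.2, 19.9 and 23.7 in MLN, 5.81, 5.91 and 5.48 in shARF, and 11.3, 12.3 and 10.1 in Both. The conditions did not overlap, with MLN highest and shARF lowest. The log2 difference with MLN4924 was 0.73 (standard error 0.08) in wt cells and 0.95 (0.09) with the shRNA, and that with the shRNA was −1.204 (0.05) in DMSO and −0.98 (0.11) in MLN4924. The ratio of TGFB1 to TGFB2 was 8.36 to 10.4 in Ctrl and 3.48 to 5.12 in MLN, 18.8 to 24.3 in shARF and 7.64 to 10.3 in Both. TGFB2-AS1, on the other strand of this locus, was at 1.995 TPM in Ctrl and 3.40 in MLN, 0.750 in shARF and 1.96 in Both (means).

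BMP2 (chromosome 20, plus strand) and BMP4 (chromosome 14, minus strand) encode BMPs that act through the same receptors. BMP2 was at 8.03, 7.27 and 8.78 TPM in Ctrl and 12.01, 12.07 and 13.4 in MLN, 3.80, 3.54 and 3.92 in shARF, and 4.91, 5.95 and 4.75 in Both. It was higher with MLN4924 in both cell populations, by 0.64 (standard error 0.09) and 0.45 (0.12), and lower with the shRNA, by −1.07 (0.09) in DMSO and −1.26 (0.11) in MLN4924. BMP4 was at 1.72, 1.80 and 2.02 TPM in Ctrl and 5.99, 5.61 and 7.83 in MLN, 1.53, 1.46 and 1.39 in shARF, and 3.11, 4.29 and 3.51 in Both. It was higher with MLN4924, by 1.74 (0.16) in wt cells and 1.25 (0.15) with the shRNA, and lower with the shRNA, by −0.32 (0.12) in DMSO, or −0.21 with a pseudocount of 1 TPM, and −0.81 (0.18) in MLN4924. Neither gene had overlapping conditions. BMP2 exceeded BMP4 in every library, 4.05 to 4.66 times in Ctrl and 1.72 to 2.15 times in MLN, 2.42 to 2.82 times in shARF and 1.35 to 1.58 times in Both.

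SMAD7 (chromosome 18, minus strand) was low, and its libraries scattered widely in MLN and shARF. It was at 1.99, 1.66 and 1.98 TPM in Ctrl and 2.60, 3.95 and 4.49 in MLN, 1.58, 1.05 and 2.28 in shARF, and 2.39, 1.93 and 2.33 in Both. The shARF libraries overlapped both Ctrl and Both, with log2 differences of −0.24 (95% interval −0.98 to 0.50) and 0.48 (−0.22 to 1.17). Without shARF library 3 these were 0.02 and 0.21. The MLN libraries were above all others, by 0.91 (standard error 0.22) over Ctrl.

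ID1 (chromosome 20, plus strand) was abundant in all 4 conditions and highest in Ctrl. Its libraries held 339, 329 and 409.9 TPM in Ctrl and 124, 137 and 133 in MLN, 105, 103 and 104 in shARF, and 87.0, 89.6 and 93.2 in Both. The conditions did not overlap, but the 3 that had MLN4924, the shRNA or both lay within a much narrower band than their distance from Ctrl. The mean was 2.74 times lower in MLN (log2 difference −1.45, standard error 0.10) and 3.45 times lower in shARF (−1.78, standard error 0.09) than in Ctrl. MLN4924 added to the shRNA gave −0.21 (standard error 0.04) against shARF, or −0.12 with scaling by the median of ratios.

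**Figure D1:**
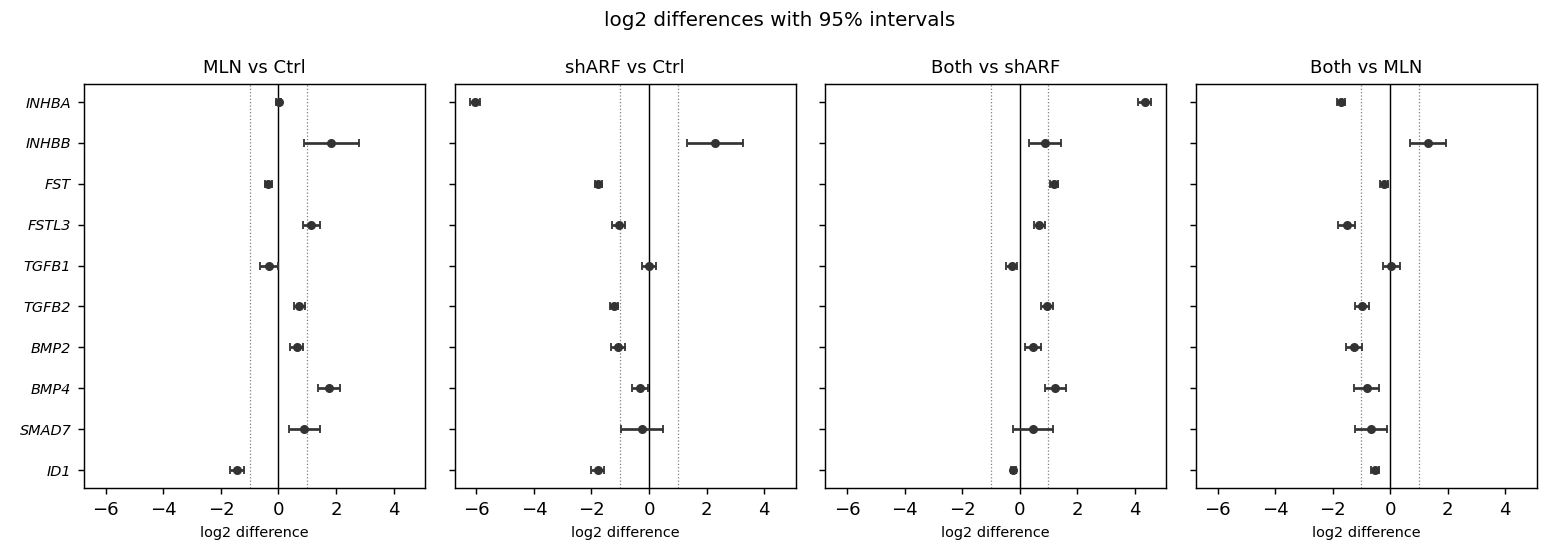
log2 differences of the 10 genes in the 4 pairwise comparisons, on the log2(TPM + 0.1) scale, with 95% intervals from limma. Dotted lines mark a difference of 1 in either direction; INHBA is at −6.05 in shARF vs Ctrl and at 4.35 in Both vs shARF, and near 0 in MLN vs Ctrl.

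Over all genes, a gene counted as called when its adjusted p was below 0.05 and its log2 difference beyond 1 in either direction. In MLN vs Ctrl 3 of the 10 genes passed as higher and 1 as lower, where 15.6% and 12.4% of all 19932 genes did. For shARF vs Ctrl 1 passed as higher and 6 as lower, beside 3.87% and 6.6% of all genes. For Both vs shARF 3 passed as higher and the other 7 did not pass, beside 13% of all genes called higher and 13.4% lower. For Both vs MLN 1 passed as higher and 3 as lower, beside 2.18% and 6.84%. Since the set was chosen with these values known, nothing is read from its counts. The median log2 difference of the 10 genes was 0.68 in MLN vs Ctrl, −1.06 in shARF vs Ctrl, 0.78 in Both vs shARF and −0.74 in Both vs MLN, and that of all genes tested was 0.05, 0, −0.04 and −0.08. The comparisons share libraries: a low shARF value lowers shARF vs Ctrl and raises Both vs shARF at once.

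Over the 12 libraries, INHBA and FST had the most alike levels within the set, with a Pearson correlation of 0.979 on the log2 scale. BMP2 and FSTL3 reached 0.959 and TGFB2 and BMP2 0.954, whereas INHBB and ID1 ran opposite with −0.937. The 12 points fall into 4 conditions shared by all genes, and the correlations are given as a description without a test. Among the 14663 genes averaging 1 TPM or more, those most like INHBA were VCAN (0.991), which encodes the matrix proteoglycan versican, and ABCA13 (0.991), a lipid transporter gene. VCAN was at 4.62 TPM in Ctrl and 4.85 in MLN, 0.982 in shARF and 2.65 in Both. FST was also close to ABCA13 (0.991). The most alike genes were, for FSTL3, PPP2R5B (0.995) and CHRNB1 (0.992), for TGFB2 DUSP10 (0.990) and CCDC117 (0.988), for BMP2 MFSD2A and HOXB5 (0.990 each), for BMP4 SLC4A1AP (0.989) and RBM48 (0.987), and for ID1 UBTD2 (0.993) and ANPEP (0.992). The best matches of INHBB, TGFB1 and SMAD7 were weaker, DDX11 (0.968), ZNF358 (0.957) and ELL (0.969).

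The wider pathway was described with a list of 112 other genes in 7 roles, of which 110 had a row and 86 passed the filter of a mean of 0.1 TPM. The mean was taken over all 12 libraries, so a gene near 0 in a condition could pass through another where it was high. The list was drawn up with earlier results of these data known. Its shares of called genes are therefore set beside those of all genes only as a description. With MLN4924 in wt cells (MLN vs Ctrl), 17 of the 86 were called higher (19.8%, against 15.6% of all genes) and 18 lower (20.9%, against 12.4%). SMADs were called in 1 direction, with 3 of 7 lower. SMAD6, the inhibitory SMAD of the BMP branch, fell from 7.89 ± 0.768 TPM (SD, n = 3 libraries) to 0.746 ± 0.0695 (log2 difference −3.24, standard error 0.13, adjusted p = 1.23e-05, but −2.345 with a pseudocount of 1 TPM). SMAD3 fell from 55.6 ± 4.44 to 22.9 ± 0.520 TPM (−1.28, adjusted p = 2.64e-05). SMAD1 also fell (−1.16, adjusted p = 0.000105), while SMAD4, which all branches share, had a log2 difference of −0.34 (adjusted p = 0.0159) and was below the fold threshold. Among 17 tested ligands 7 were higher and 3 lower. These counts include genes that passed the filter only through the conditions where they were high. BMP5 (0.0258 TPM in Ctrl, 1.199 in MLN) and BMP10 (0 and 0.409) were called higher, and MSTN (0.144 and 0.0178) lower. The same genes were called in the same directions in Both vs shARF. INHBE, another activin subunit gene, rose from 1.79 ± 0.451 to 10.4 ± 2.56 TPM (2.47, adjusted p = 0.000311), and BMP3, whose product opposes other BMPs, fell from 10.0 ± 0.602 to 2.01 ± 0.194 TPM (−2.27, adjusted p = 1.89e-05).

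Receptors and co-receptors went both ways, with 3 of 15 higher and 3 lower. AMHR2, the receptor of anti-Müllerian hormone, rose to 3.36 TPM (log2 difference 1.73, adjusted p = 0.000119, but 1.17 with a pseudocount of 1 TPM). The BMP receptor gene BMPR1B fell to 2.86 TPM (−1.36, adjusted p = 0.000368). Among the 4 most abundant, TGFBR2, the type II receptor of TGF-β, fell from 147 to 70.0 TPM (−1.07, adjusted p = 1.58e-05) and ACVR1B, a type I receptor of activins, rose from 19.2 to 44.3 TPM (1.195, adjusted p = 3.09e-05). ACVR1 had a log2 difference of 0.13 (adjusted p = 0.174), and RGMB, a BMP co-receptor gene, had 0.91 (adjusted p = 4.14e-05, below the fold threshold). Of 9 extracellular antagonists, 2 were higher and 2 lower. NOG, which encodes the BMP antagonist noggin, fell from 54.3 ± 2.97 to 8.01 ± 0.909 TPM (−2.75, adjusted p = 7.35e-06), and DAND5 rose from 0.331 to 2.89 TPM (2.81, adjusted p = 0.000132, but 1.55 with a pseudocount of 1 TPM). Of 11 genes for latency and activation, 4 were lower, led by LTBP1, which tethers latent TGF-β to the matrix (101 to 20.0 TPM, −2.33, adjusted p = 6.46e-06), and PCSK5 was higher (1.70, adjusted p = 0.00114, but 0.945 with that pseudocount). Of 14 intracellular regulators, TGIF2, a co-repressor of SMADs, was lower (−1.24, adjusted p = 3.7e-05). Of 13 textbook targets, 4 were higher and 2 lower. PTHLH rose from 16.8 ± 1.04 to 169.9 ± 8.67 TPM (3.33, adjusted p = 1.7e-06) and the actin-binding gene TAGLN from 0.375 to 7.17 TPM (3.99, adjusted p = 7.2e-05, but 2.57 with a pseudocount of 1 TPM).

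**Figure D2:**
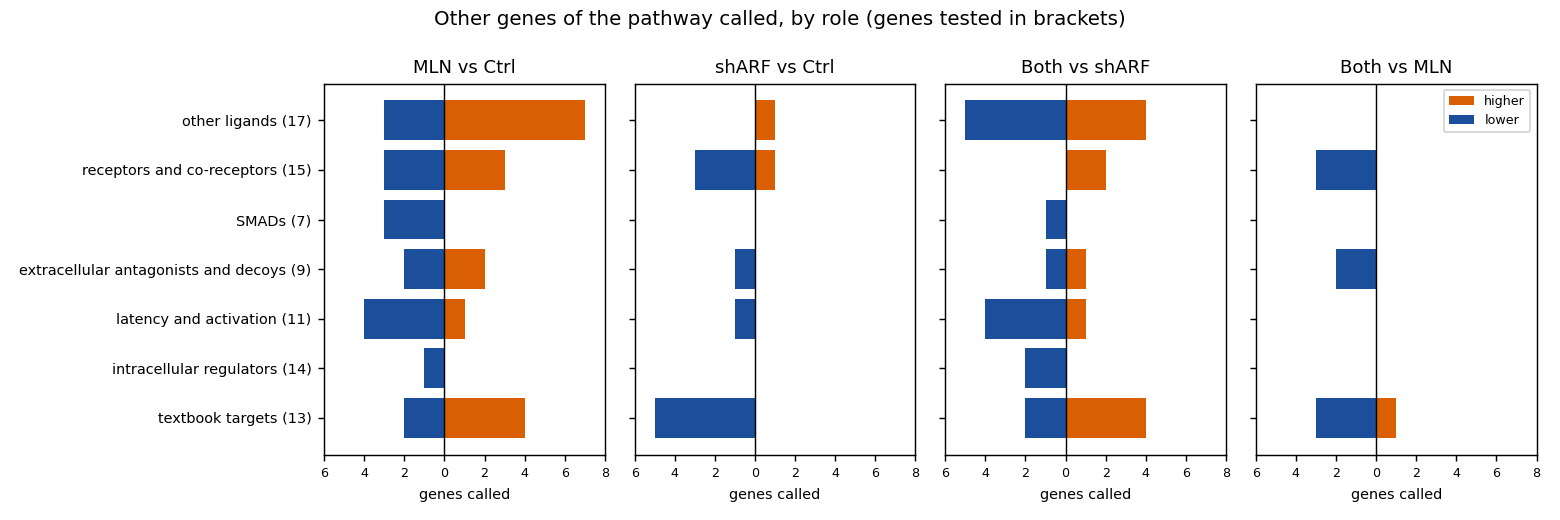
Number of the other pathway genes called higher (right) or lower (left) in each pairwise comparison, by role, with the number tested in brackets. In shARF vs Ctrl the 5 called textbook targets all point left, and in MLN vs Ctrl the 3 called SMADs do.

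With the shRNA alone (shARF vs Ctrl), 2 of the 86 genes were called higher (2.33%, against 3.87% of all genes) and 10 lower (11.6%, against 6.6%). The 2 higher genes were AMHR2 (0.940 to 2.19 TPM) and GDF1, which lay near the filter (0.0615 to 0.376 TPM). Textbook targets held 5 of the 10 that were lower, with none of the 13 called higher by limma, at an unadjusted p below 0.05 for 11 of 13 in either direction. The targets did not all go down, and their median log2 difference was −0.174. Below the fold threshold, ID2 rose from 29.05 to 50.5 TPM (0.796, adjusted p = 8.57e-05). SNAI1 (0.855), KLF10 (0.263) and HEY1 (0.243) were also higher at an adjusted p below 0.05. TGFBI, a matrix protein named for its induction by TGF-β, fell from 1.40 to 0.0937 TPM (log2 difference −2.98, adjusted p = 0.000578, but −1.13 with a pseudocount of 1 TPM). FN1, which encodes fibronectin, fell from 24.6 ± 2.39 to 3.45 ± 0.0958 TPM (−2.80, adjusted p = 5.11e-05). ID3 and PTHLH were also among the 5, at −2.002 and −2.21. Receptors held 3 of the lower genes and 1 of the higher. TGFBR2 fell to 46.6 ± 0.615 TPM (−1.66, adjusted p = 1.11e-05), and ENG, the co-receptor endoglin, fell from 7.64 ± 1.27 to 1.99 TPM (−1.89, adjusted p = 0.000824). THBS1, whose product thrombospondin can activate latent TGF-β, fell from 24.3 to 11.6 TPM (−1.06, adjusted p = 0.000397), but was below the fold threshold without Ctrl library 1 (−0.998). No SMAD passed both thresholds in limma (4 of 7 at an unadjusted p below 0.05), with SMAD3 at −0.77 (adjusted p = 0.000991) and SMAD6 at 0.55 (adjusted p = 0.00968).

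With MLN4924 on top of the shRNA (Both vs shARF), 12 of the 86 genes were called higher (14%, against 13% of all genes) and 15 lower (17.4%, against 13.4%). SMAD6 fell from 11.6 ± 1.00 to 0.534 ± 0.0402 TPM (log2 difference −4.20, adjusted p = 3.27e-06). NOG fell from 72.6 to 15.7 TPM (−2.21, adjusted p = 3.93e-05), LTBP1 from 54.2 to 12.8 TPM (−2.07, adjusted p = 1.29e-06), BMP3 from 13.5 to 3.06 TPM (−2.12, adjusted p = 4.27e-05) and TGIF2 from 61.8 to 15.8 TPM (−1.96, adjusted p = 1.41e-06). SKI, another SMAD co-repressor, fell as well (−1.15, adjusted p = 3.07e-05). On the other side INHBE rose from 2.78 to 14.4 TPM (2.34, adjusted p = 1.46e-05), RGMB from 16.4 to 53.1 TPM (1.69, adjusted p = 4.5e-06), PCSK5 from 0.413 to 3.77 TPM (2.92, adjusted p = 1.99e-05) and DAND5 from 0.394 to 2.07 TPM (2.13, adjusted p = 5.44e-05). With a pseudocount of 1 TPM, PCSK5 was at 1.76, DAND5 at 1.14, SMAD6 at −3.035 and TAGLN, given below, at 2.965. PTHLH rose from 3.597 ± 0.702 to 102 ± 8.17 TPM (4.80, adjusted p = 4.74e-06) and TAGLN from 0.362 to 9.68 TPM (4.43, adjusted p = 3.37e-05).

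Between the MLN4924 conditions (Both vs MLN), 1 of the 86 genes was called higher (1.16%, against 2.18% of all genes) and 8 lower (9.3%, against 6.84%). The higher gene was HEY1, a textbook target (1.135, adjusted p = 0.000783), whose mean was 18.7 TPM for MLN and 41.1 for Both. Of the 13 textbook targets tested, 3 were called lower, so the called targets went both ways. ENG fell from 6.39 ± 0.796 to 1.26 ± 0.260 TPM (log2 difference −2.27, adjusted p = 0.000947), TGFBI from 4.07 ± 0.510 to 0.803 ± 0.0703 TPM (−2.21, adjusted p = 0.000558) and ID3, like ID1 a target of BMPs, from 28.1 ± 2.14 to 7.37 ± 2.38 TPM (−1.97, adjusted p = 0.00341). AMHR2 (−1.07, adjusted p = 0.00542) and TMEFF2 (−1.06, adjusted p = 0.00701) were barely past the fold threshold. Without Both library 3 they were at −0.979 and −0.986, without MLN library 5 TMEFF2 was at −0.968, and with scaling by the median of ratios they were at −0.985 and −0.969. With a pseudocount of 1 TPM, ENG was at −1.71, TGFBI at −1.49, AMHR2 at −0.775 and TMEFF2 at −0.669.

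Whether the response to MLN4924 differed between wt cells and cells with the shRNA was tested as an interaction, the log2 difference Both vs shARF minus that of MLN vs Ctrl, over all 12 libraries. Of all genes 3.52% were called positive and 4.95% negative, and of the 86 pathway genes 4 (4.65%) and 5 (5.81%). FN1 had the largest positive value, 2.36 (standard error 0.13, adjusted p = 2.01e-07), with 24.6 TPM in Ctrl and 32.9 in MLN against 3.45 in shARF and 24.2 in Both. SNAI1, an epithelial to mesenchymal transition factor gene, had −1.95 (standard error 0.26, adjusted p = 0.000196), with 7.94 TPM in Ctrl and 57.2 in MLN against 14.3 in shARF and 26.2 in Both. AMHR2 had −2.20 (adjusted p = 4.33e-05), PCSK5 1.22 (adjusted p = 0.00746), BMPR1B 1.16 (adjusted p = 0.000464) and BAMBI, a decoy receptor gene, −1.06 (adjusted p = 0.00103). BAMBI was at −0.971 without MLN library 5, −0.934 without Both library 2 and −0.965 with scaling by the median of ratios. With a pseudocount of 1 TPM AMHR2 was at −1.487, PCSK5 at 0.811 and BMPR1B at 0.975.

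For the 10 chosen genes the same quantity is a description. INHBA had 4.34 (standard error 0.09), or 3.76 with a pseudocount of 1 TPM, FST 1.55 (0.08) and ID1 1.24 (0.11). These 3 of the 10 were past the rule used for all genes as positive, beside 3.52% of all genes, and none as negative, beside 4.95%. Nothing is read from these counts either. The other 7 ranged from −0.97 for INHBB, or −0.08 with a pseudocount of 1 TPM, to 0.22 for TGFB2. The 95% interval of the interaction was −0.28 to 0.38 for TGFB1, −0.06 to 0.50 for TGFB2 and −0.51 to 0.15 for BMP2.

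**Figure D3:**
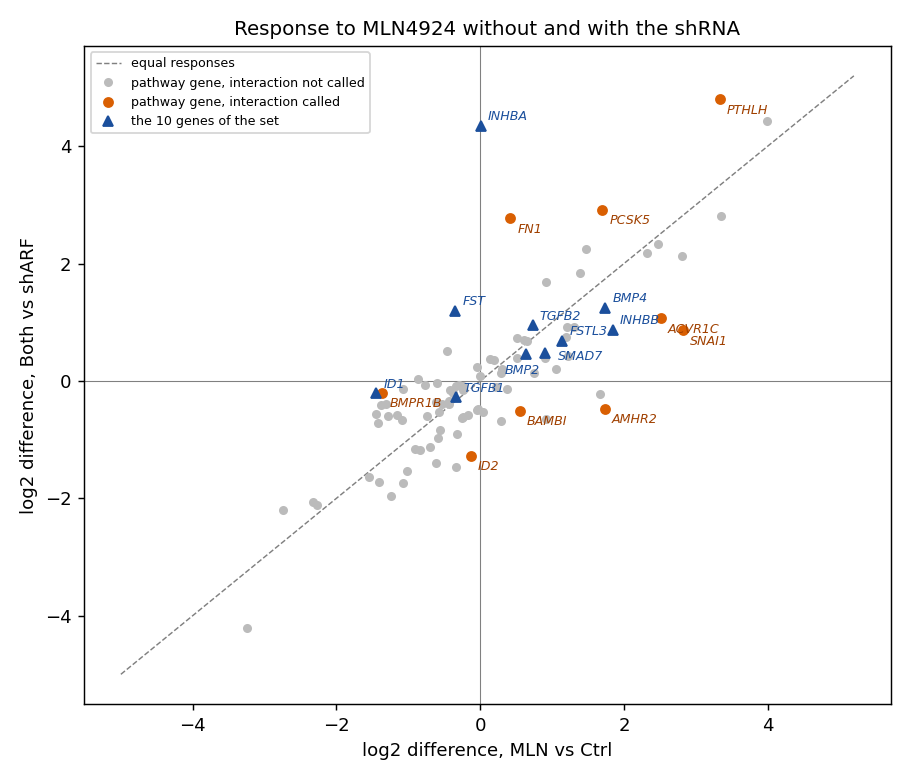
Log2 difference with MLN4924 in cells with the shRNA (Both vs shARF, vertical) against that in wt cells (MLN vs Ctrl, horizontal). Triangles are the 10 genes, circles the 86 other pathway genes, orange where the interaction was called in limma, and the dashed line marks equal responses; INHBA lies at 0.01 and 4.35 and FN1 at 0.42 and 2.78.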

How the data were processed

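RNA sequencing of 4 conditions with 3 libraries each was analysed from the deposited gene table. The authors trimmed the reads, mapped them to hg38 with an Ensembl annotation in CLC Genomics Workbench, and deposited TPM values, which sum to 1000000 in each library. TPM keeps no depth, so the depth and the counting error behind a value are unknown. The design text calls the shRNA a knockout and gives the dose in mM. The labels and the methods give an shRNA and 1 µM, which were used.

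Differences were computed with limma 3.58.1 in R 4.3.3 (lmFit, eBayes with trend) on log2(TPM + 0.1), which understates changes of low genes, for the 19932 genes that averaged 0.1 TPM or more, with Benjamini-Hochberg adjustment over them. Each pairwise fit used its 6 libraries, and the interaction all 12. The authors' count-based DESeq2 test could not be used on TPM. The script was tested on simulated data. The 10 genes and all lists were chosen with earlier results of these data known. Per role and comparison, the up to 2 called genes with the largest differences were named, if they averaged 1 TPM or more, besides the 4 most abundant receptors, the SMADs and, where 5 or fewer were counted, those counted, and the genes best correlated with each of the 10. Positions are from GENCODE (GRCh38). HJV and CCN2 were not analysed here. Some genes named by this rule are not reported here. Alternatives were other pseudocounts, filters and scaling, 1 fit of all libraries, a replicate block, eBayes with no trend, and each library left out in turn.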

Additional observations from a re-analysis of the deposited data

Results flagged for a closer look

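The response to MLN4924 differed between wt cells and cells with the shRNA, by the interaction test of limma, for FN1 (2.36), SNAI1 (−1.95), AMHR2 (−2.20), PCSK5 (1.22), BMPR1B (1.16) and BAMBI (−1.06), the up to 2 called genes per role with the largest values among those averaging 1 TPM or more. FST was lower in every MLN library than in any Ctrl library and higher in every Both library than in any shARF library, an interaction of 1.55. For FST, whose levels were among those that chose the set, this difference was not tested. With 3 libraries per condition, no search for a single outlying library was made.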

How the results depend on the processing

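The number of the 86 pathway genes called was within 1.5 times that reported under each alternative except 2. With the replicate block, which leaves 1 residual degree of freedom, shARF vs Ctrl gave 0 called genes in place of 12 (lowest adjusted p 0.0607, 45 of 86 at an unadjusted p below 0.05), and MLN vs Ctrl gave 30. Library numbers do not show a pairing, since deviations of same-numbered libraries from their condition means correlated at −0.046 to 0.022 over 10 pairs, and Both shares 1 number with shARF and with MLN, too few to block. With a pseudocount of 1 TPM, Both vs MLN gave 5 called genes in place of 9. Leaving out each library in turn gave 33 to 35 called genes in MLN vs Ctrl, 11 to 12 in shARF vs Ctrl, 25 to 28 in Both vs shARF, 8 to 11 in Both vs MLN and 8 to 12 for the interaction. Of 587 values of the named pathway genes under alternatives, 566 stayed called, 21 kept their direction but missed a threshold, and none reversed. Of 730 values of the 10 genes, 703 moved by less than 1 SD between libraries. Much of this was fixed in advance and is no sign of stability. The filters, the fit of all libraries and eBayes with no trend cannot change a log2 difference. Leaving out 1 of 3 libraries cannot move a pairwise difference by 1 SD. The sign changed with a library left out for TGFB1, for INHBA in MLN vs Ctrl (0.007 to −0.016) and for SMAD7 in shARF vs Ctrl (−0.244 to 0.021). Scaling by the median of ratios moved the median of all genes from −0.08 to 0 in Both vs MLN.

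The TPM values keep no depth, so the counting error of low genes such as INHBB or SMAD7 could not be separated from the rest of the spread between libraries. Each condition rests on 3 libraries, whose independence is not stated. No control shRNA and no second shRNA is named, so effects of the vector cannot be told apart from those of p14ARF depletion.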
